A study of Mus musculus with 20 samples.

Results

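Sterol and fatty acid synthesis was followed through 30 named genes in RNA-seq libraries of 5 cell populations sorted from the dorsal epidermis of mice. The genes were found by their symbols among the 53380 genes of the table, and each symbol had 1 row. They comprise 4 genes of sterol sensing and SREBP control, 7 of the mevalonate arm, 11 that carry squalene to cholesterol and 8 of fatty acid synthesis. All 30 passed the filter of a normalized count of at least 10 in at least 3 libraries, which 17204 genes passed.

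The populations were HFSCs, bulge stem cells of hair follicles sorted as α6+Sca1-CD34+ (4 libraries), DETCs, the dendritic T cells of the epidermis sorted as α6-Sca1lowThy1+ (5 libraries), Thy1hi and Thy1- basal keratinocytes of the α6+Sca1+ gate (4 libraries each), and Thy1hiYFP+ cells (3 libraries). The sample labels give 1 genotype for every sample, Thy1.2CreERT2-Rosa26-EYFP, with no treatment, and ages that rise by a week per sample from 8 to 27 weeks, while the series design gives mice of 8 weeks. By the study's methods, the first 4 populations came from wild-type C57BL/6J mice, and the YFP+ cells from tamoxifen-induced mice in which Thy1 promoters drive both CreERT2 and a reporter. These mice also carry a Rosa26 EYFP allele that CreERT2 switches on, so YFP marks cells in which the transgene was active and their descendants. The line itself carries EYFP under Thy1, which the study reports as below detection in the epidermis. The cell type label of the YFP+ samples reads Sca1-, which their titles do not. The preparation was run in 2 batches that the labels do not tie to samples, and mice may have been pooled, so the p-values measure the spread between libraries. By those methods, genotype and induction cannot be told apart from the YFP+ population, and the part of batch was not tested.

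Values are reads per gene divided by 1 size factor per library, called normalized counts here. Libraries held 7781256 to 12982393 reads on genes, and 13.1% to 41.5% of them belonged to Rn45s, a ribosomal RNA precursor. In replicate 4 of Thy1- cells 3212 rows stood out of order and were put back, and Nsdhl is the 1 gene of the 30 that this moved. Marker lists set DETCs and HFSCs apart from the other populations. The summed count of 5 T cell markers was 8909 to 15862 in DETCs and 68.8 to 246 elsewhere, and that of 4 follicle stem cell markers was 3920 to 4711 in HFSCs and 91.6 to 384 elsewhere. The DETC libraries also held keratinocyte RNA, with a summed count of 5 basal markers of 11535 in the DETC library named a here and of 39575 to 55467 in the other 4. Langerhans cell markers had reads in every library, with a summed count of 60.3 to 4263 in HFSCs and 433 to 2709 elsewhere. The summed count of 5 adipocyte markers was 0 to 20.7.

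Cholesterol is built from acetyl-CoA through mevalonate, isoprenoid diphosphates, squalene and a series of sterols. When membranes are low in sterol, SCAP escorts the membrane-bound SREBP factors to the Golgi, where they are cut to active forms that switch on genes of this pathway, and INSIG proteins hold SCAP back when sterol is plentiful. Fatty acids share the first precursor, are elongated by ELOVL enzymes and desaturated by SCD and FADS enzymes, and in skin both lipids feed the barrier of the epidermis and the sebum of the sebaceous gland.

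The promoters of 5 members are shown because their genes carry the results described after them. Hmgcs1, Nsdhl and Ebp stood higher in the Thy1hiYFP+ libraries than in any other library, without passing the adjusted test against Thy1hi cells. Insig1 was higher in every Thy1hi than in every Thy1- library, but passed the test only when libraries were paired by replicate number. That call was lost when any pair was left out. Fads2 was high in DETCs. Each stretch is from RefSeq (GRCm38.p6), runs 5′ to 3′ in the direction of the gene and ends before the start of the gene in the files' annotation. Capitals mark matches, on either strand, to the sterol regulatory element TCACNCCAC, to CCAAT, the site read by the NF-Y factor, and to GGGCGG, the site read by Sp1.
Hmgcs1 (chr13:119690101-119690350, + strand): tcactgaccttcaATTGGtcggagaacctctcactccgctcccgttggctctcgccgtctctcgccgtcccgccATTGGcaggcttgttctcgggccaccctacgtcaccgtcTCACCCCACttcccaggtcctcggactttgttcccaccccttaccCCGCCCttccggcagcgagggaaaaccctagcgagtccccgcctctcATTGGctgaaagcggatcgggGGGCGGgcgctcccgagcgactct
Nsdhl (chrX:72918271-72918520, + strand): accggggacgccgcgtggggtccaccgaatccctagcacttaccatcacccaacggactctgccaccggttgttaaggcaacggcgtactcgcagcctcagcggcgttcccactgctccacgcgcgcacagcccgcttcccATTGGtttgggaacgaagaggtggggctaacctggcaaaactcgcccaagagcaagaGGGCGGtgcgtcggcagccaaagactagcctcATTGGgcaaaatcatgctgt
Ebp (chrX:8193513-8193762, - strand): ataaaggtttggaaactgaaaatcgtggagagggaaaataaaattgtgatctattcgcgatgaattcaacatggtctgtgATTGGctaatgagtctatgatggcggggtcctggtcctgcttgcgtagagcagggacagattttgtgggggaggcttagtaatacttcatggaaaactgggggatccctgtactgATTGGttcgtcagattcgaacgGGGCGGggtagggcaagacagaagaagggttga
Insig1 (chr5:28071162-28071362, + strand): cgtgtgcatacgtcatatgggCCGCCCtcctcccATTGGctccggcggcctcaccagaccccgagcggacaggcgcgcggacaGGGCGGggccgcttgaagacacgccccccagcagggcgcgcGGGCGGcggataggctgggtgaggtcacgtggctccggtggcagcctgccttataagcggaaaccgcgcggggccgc
Fads2 (chr19:10101504-10101753, - strand): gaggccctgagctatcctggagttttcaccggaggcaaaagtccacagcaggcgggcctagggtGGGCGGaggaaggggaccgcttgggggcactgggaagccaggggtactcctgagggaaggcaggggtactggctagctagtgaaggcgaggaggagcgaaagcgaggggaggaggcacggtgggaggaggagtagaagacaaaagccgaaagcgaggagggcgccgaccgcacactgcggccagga

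The RefSeq table held windows, each of 250 bases before to 50 after a start, for 24 of the 30 genes, and none for Fdft1, Sqle, Scd1, Scd2, Fads1 and Fdps. TCACNCCAC was found in 1.24% of all 32851 windows and, among the 24 genes, in that of Hmgcs1, whose enzyme makes HMG-CoA. CCAAT was found in 37.4% of all windows and in 20 of the 30 windows of these genes (66.7%), which belong to 19 genes. GGGCGG was found in 35.7% of all windows and in 23 of these 30 windows (76.7%), which belong to 20 genes. None of the 3 motifs contains another. In the stretches shown, the Hmgcs1 promoter held 3 matches to CCAAT and 2 to GGGCGG, those of Nsdhl and Ebp held 2 and 1 each, that of Insig1 held 1 and 3, and that of Fads2 held 0 and 1. Idi1 and Acaca, which also stood higher in the Thy1hiYFP+ libraries than in any other, are not shown. Both CCAAT and GGGCGG were found for Idi1, and none of the 3 motifs for Acaca.

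Read per kilobase of exon, Hmgcs1 had the highest mean of the 30 genes in DETCs (275 normalized counts per kb), Thy1hiYFP+ (612), Thy1hi (414) and Thy1- cells (335), and was second to Scd1 in HFSCs (303 against 390). Without HFSC replicate 1 the order of these genes in HFSCs turned, with 264 for Hmgcs1 and 220 for Scd1. Fdft1, the enzyme that makes squalene, came second in Thy1hi (203) and Thy1- cells (191). In the 4 keratinocyte populations Fads2 was the lowest, with 0.336 to 1.9 normalized counts per kb. In DETCs Tm7sf2, a sterol reductase, was the lowest (4.38). Of the stearoyl-CoA desaturases, Scd1 exceeded Scd2 by mean per kb in all 5 populations, from 189 against 164 in DETCs to 390 against 31 in HFSCs. In DETCs this rested on library 1, without which Scd1 had 104 and Scd2 183.

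**Figure D1:**
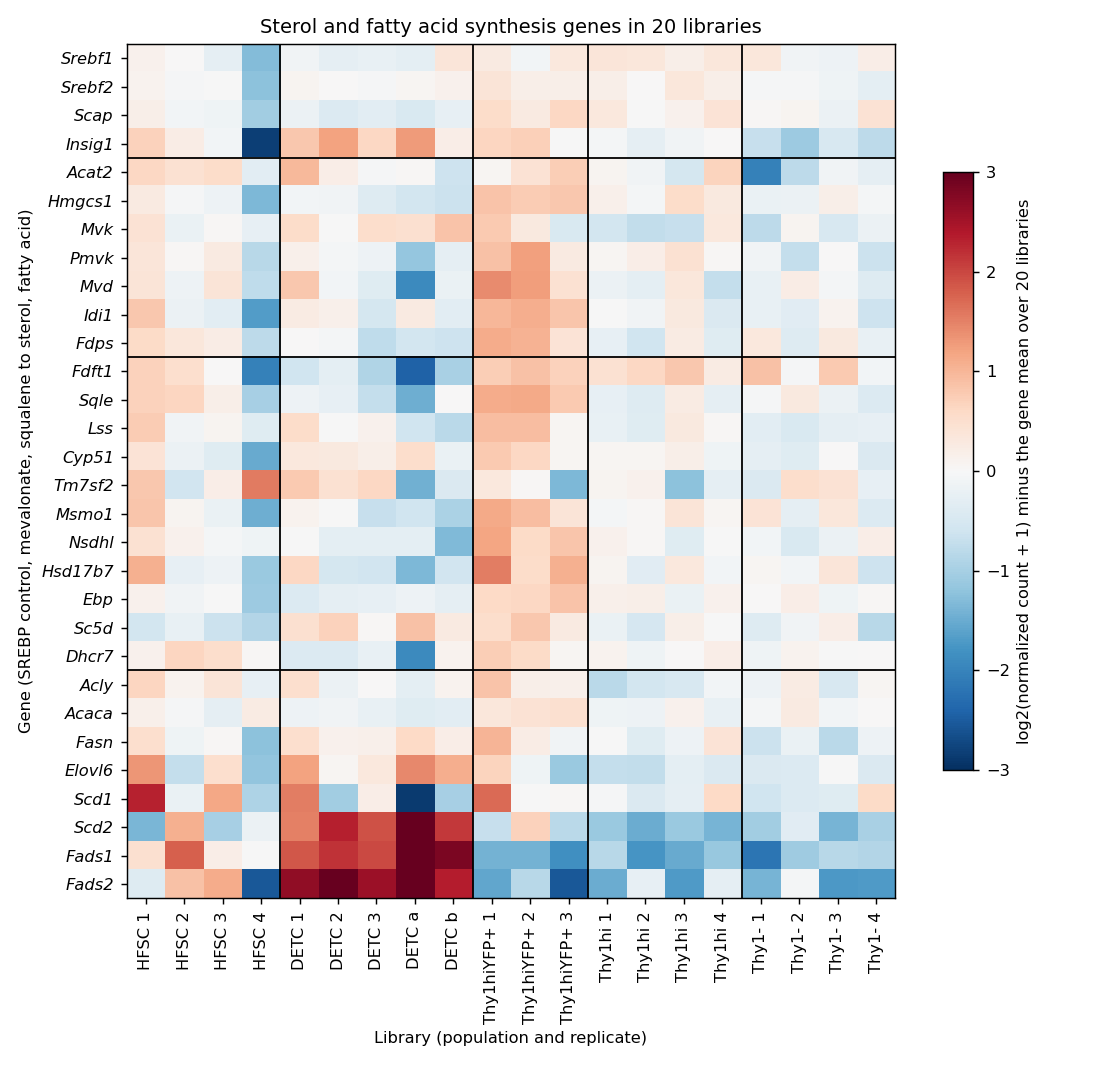
Heat map of the 30 genes (rows, in the order SREBP control, mevalonate, squalene to sterol and fatty acid, split by lines) in the 20 libraries (columns), coloured by log2(normalized count + 1) minus the gene's mean over all libraries. Scd2, Fads1 and Fads2 are red in the DETC columns, many sterol genes are red in the Thy1hiYFP+ columns, and the column of HFSC replicate 4 is blue at most rows.

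Of the 4 desaturases of fatty acids among the 30 genes, Fads1, Fads2 and Scd2 were high in DETCs, and Scd1 passed the test in no comparison. Fads1, the delta-5 desaturase (ENSMUSG00000010663.4, chr19:10182888-10196870 on mm10), had normalized counts of 76.3, 95.6, 83.8, 247 and 150.1 in the DETC libraries 1, 2, 3, a and b. It had 11.0, 5.27, 6.50 and 8.73 in the Thy1hi libraries and 3.65, 9.26, 11.0 and 10.7 in the Thy1- libraries. HFSCs stood between them with 28.9, 72.8, 23.5 and 20.3, and the YFP+ libraries had 6.98, 6.97 and 4.95. No DETC value overlapped any other, and no HFSC value overlapped a Thy1hi or Thy1- value. Against DETCs, Fads1 was lower by 13.8-fold in Thy1hi cells (log2 −3.79 ± 0.42 SE, adjusted p = 5.08e-07) and by 3.63-fold in HFSCs (log2 −1.86 ± 0.42 SE, adjusted p = 0.00152), by limma with Benjamini-Hochberg adjustment over all genes tested, as are all adjusted p-values here unless another tool is named.

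Fads2, the delta-6 desaturase that acts a step before Fads1 and lies near it (chr19:10064164-10101503), was also highest in DETCs, at lower counts, while its HFSC values overlapped those of Thy1hi and Thy1- cells. It had 36.2, 46.8, 33.99, 83.7 and 28.8 in DETCs, 3.46, 9.77, 11.8 and 0 in HFSCs, 1.10, 3.95, 0.81 and 3.88 in Thy1hi cells, 1.22, 4.63, 0.79 and 0.82 in Thy1- cells, and 1.0, 2.32 and 0 in YFP+ cells. The 211 reads in DETCs stood against 9 in Thy1hi cells, a ratio of 19.0 after the size factors (95% interval 9.85 to 42.2, counting error only), and against 23 in HFSCs, a ratio of 7.88 (5.11 to 12.7). The fitted differences from DETCs were log2 −3.82 ± 0.67 SE for Thy1hi cells (adjusted p = 0.000118) and log2 −3.13 ± 0.67 SE for HFSCs (adjusted p = 0.000841). Fads2 reached the filter's count of 10 only in the DETC libraries and in HFSC replicate 3. It was thus tested only through the population where it is high, and these p-values add little to the separation itself.

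Scd2, a delta-9 desaturase, had 498, 888, 664, 1685 and 759 in DETCs, 66.95, 370.4, 86.6 and 154 in HFSCs, and 80.6, 61.9, 80.5 and 66.0 in Thy1hi cells. Thy1- cells had 83.9, 139, 66.3 and 88.5, and YFP+ cells 108, 285 and 99.1. The lowest DETC library exceeded every other library. Scd2 was 11.3-fold lower in Thy1hi cells (log2 −3.50 ± 0.42 SE, adjusted p = 1.30e-06) and 6.05-fold lower in HFSCs (log2 −2.60 ± 0.42 SE, adjusted p = 5.22e-05) than in DETCs. For Fads1, Fads2 and Scd2 the exact permutation test of mean log2 values gave p = 0.00794 in both comparisons (two-sided, 4 against 5 libraries), the smallest it can give. Groups that do not overlap put this p at or next to its floor, so it adds little to the separation itself. All 3 genes were highest in DETC library a, which had the lowest sum of basal keratinocyte markers, and Fads1 and Scd2 were lowest in DETC library 1, which had the highest sum. The part of keratinocyte RNA in these levels was not tested.

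**Figure D2:**
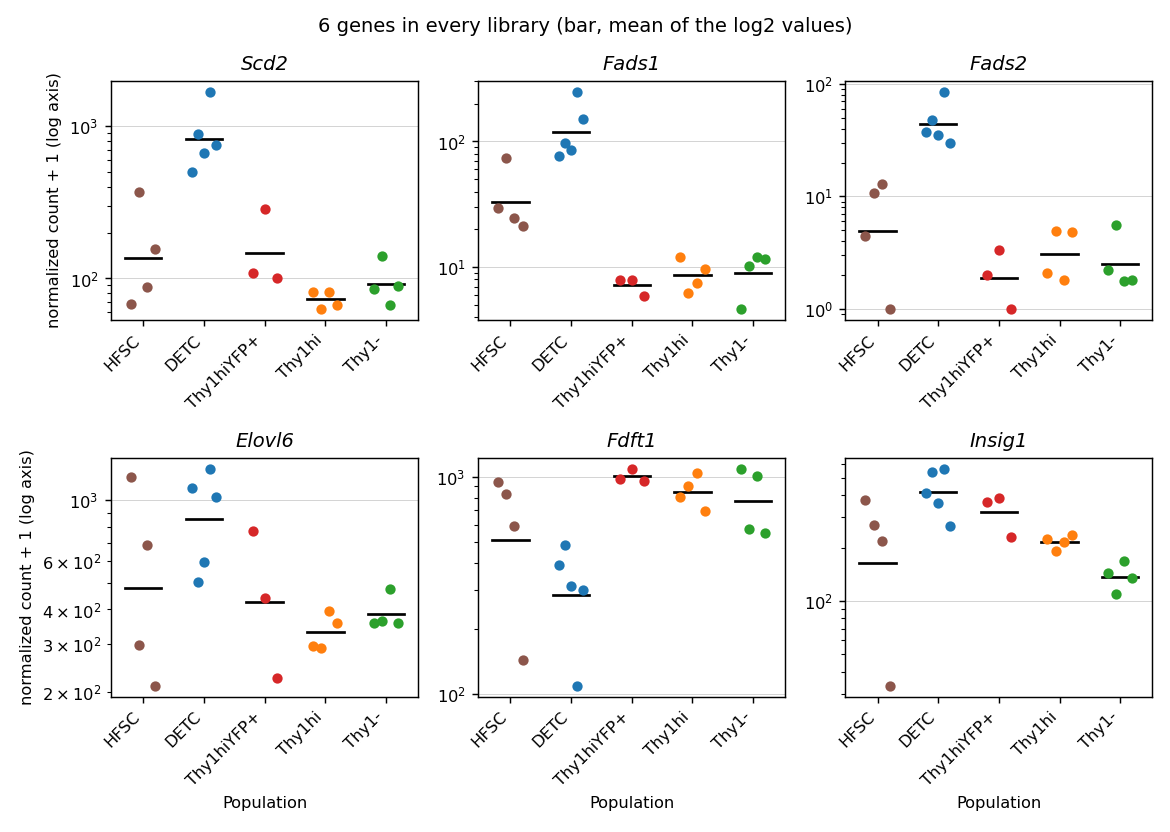
Normalized count plus 1 (log axis) of 6 genes in each library (points) by population, with the mean of the log2 values as a bar. The 5 DETC points of Scd2, Fads1 and Fads2 lie above all others, HFSCs lie between DETCs and the other keratinocytes for Fads1, and the lowest Insig1 point is HFSC replicate 4 at 32.2 before 1 was added.

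Of the 30 genes, 2 were higher and 6 lower in Thy1hi cells than in DETCs, where 16.6% of all genes tested were higher and 19.9% lower. In HFSCs against DETCs 1 was higher and 5 lower, beside 18.5% and 21.2% of all genes. The shares of genes lower (6 and 5 of 30) were near the background, and those of genes higher (2 and 1 of 30) were below it. The 30 differences had a median of 0.13 (log2) for Thy1hi cells and 0.12 for HFSCs, beside 0.00 and −0.02 over all genes. The comparisons share the DETC libraries. DESeq2 on whole reads called 3 higher and 7 lower for Thy1hi cells, adding Hmgcs1 and Insig1. It called 2961 higher and 3575 lower of all 17204 genes. Without HFSC replicate 4, HFSCs had 4 genes higher (Dhcr7, Fdft1, Fdps and Sqle) and 4 lower, beside 3283 and 3645 of all genes. Without HFSC replicate 1 they had 1 higher and 8 lower, beside 2661 and 3295.

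By branch, 4 of the 8 fatty acid genes were lower in Thy1hi cells than in DETCs and none of them higher. The fourth beside the desaturases was Elovl6, which elongates palmitate to stearate. It had 1105, 504, 596, 1302 and 1024 in DETCs and 294, 289.8, 394 and 355 in Thy1hi cells, with no overlap (log2 −1.36 ± 0.41 SE, adjusted p = 0.0126). HFSCs spread over both ranges, with 1209, 295, 686 and 210.2. Acly, Acaca and Fasn, which make acetyl-CoA, malonyl-CoA and palmitate, passed the test against DETCs in neither comparison.

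In the sterol branches the calls went both ways. Fdft1 had 803, 904, 1033 and 692 in Thy1hi cells and 389, 482, 312, 108 and 299 in DETCs, 2.96-fold higher without overlap (log2 1.57 ± 0.44 SE, adjusted p = 0.00794). Scap, the escort of the SREBP factors, was 1.44-fold higher in Thy1hi cells (log2 0.53 ± 0.19 SE, adjusted p = 0.0384), a call that 13 of 22 alternatives kept (adjusted p from 0.00339 to 0.109). Mvk, mevalonate kinase, had 189.8, 129, 189, 181 and 237 in DETCs and 88.3, 77.7, 79.7 and 163 in Thy1hi cells, where it was 1.86-fold lower (log2 −0.90 ± 0.27 SE, adjusted p = 0.0127). Thy1hi replicate 4 stood apart from the other 3 and lay inside the DETC range. With the replicate block over all populations, the calls of Mvk and Elovl6 were lost (adjusted p = 0.052 and 0.111).

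Sc5d, a late sterol desaturase, had 227, 266, 167, 303 and 198 in DETCs and 112, 141, 105 and 88.3 in HFSCs, 2.06-fold lower without overlap (log2 −1.04 ± 0.23 SE, adjusted p = 0.000973). In Thy1hi cells it had 144, 116, 184 and 162, and its call against DETCs (log2 −0.60 ± 0.23 SE, adjusted p = 0.0404) held in 11 of 22 alternatives (adjusted p from 0.020 to 0.184). It was lost under both rescalings of totals and quantile normalization. Dhcr7, which closes the pathway to cholesterol, was 1.87-fold higher in HFSCs than in DETCs (149, 213, 199 and 140.1 against 103, 102, 116, 35.7 and 148, log2 0.91 ± 0.29 SE, adjusted p = 0.0158). The call was lost without HFSC replicate 2 (adjusted p = 0.0504) and with only these 2 populations fitted (0.0791).

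Insig1, the sterol-bound brake on SCAP, had 409, 542, 359, 565 and 268 in DETCs and 375, 272, 220.2 and 32.2 in HFSCs (log2 −1.32 ± 0.46 SE, adjusted p = 0.0255). The call rested on HFSC replicate 4. Without it the difference was log2 −0.55 ± 0.24 SE (adjusted p = 0.0748), and edgeR on whole reads gave an adjusted p of 0.0722. Leaving out DETC replicate 2 or a also ended it (adjusted p = 0.0558 and 0.0601).

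Other lists of lipid genes were read against the same shares of all genes (16.6% higher and 19.9% lower for Thy1hi cells, 18.5% and 21.2% for HFSCs). Of 21 other fatty acid genes tested, of a list of 23, 3 were higher and 3 lower in Thy1hi cells, and likewise in HFSCs, shares below those of all genes. Elovl5, which elongates the products of Fads2, had a mean of 107 in Thy1hi cells, 258 in HFSCs and 1270 in DETCs (log2 −3.52 ± 0.39 SE, adjusted p = 3.83e-07, and −2.43 ± 0.39 SE, adjusted p = 4.27e-05). Hacd3, a dehydratase of the elongation cycle, and Acsl4, which loads polyunsaturated fatty acids onto CoA, were also lower in both (log2 −2.39 and −1.58 for Thy1hi cells, −2.14 and −1.59 for HFSCs). The higher genes were Elovl7, Acsl1 and Acsl3 in Thy1hi cells (log2 1.15, 0.91 and 0.86) and Elovl7, Acsl1 and Tecr in HFSCs (log2 0.70, 0.77 and 0.93).

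Of 7 genes of sterol efflux and the liver X receptor tested, of a list of 8, 6 were lower and 1 higher in Thy1hi cells than in DETCs, and 4 were lower and 0 higher in HFSCs, beside 19.9% lower and 16.6% higher, and 21.2% lower, of all genes. Abcg1, a sterol exporter, had means of 186 in Thy1hi cells, 96.8 in HFSCs and 620.0 in DETCs (log2 −1.71, adjusted p = 0.000281, and −2.72, adjusted p = 1.14e-06). Nr1h2, which encodes a liver X receptor, was lower by 0.83 and 0.76 on the log2 scale. Soat1, which esterifies cholesterol, was lower in Thy1hi cells (63.3 against 388, log2 −2.63 ± 0.69 SE, adjusted p = 0.00484), and Lpcat3, a phospholipid remodelling enzyme, was the gene that was higher (log2 0.84). Of the 6 other sterol genes, Insig2 was higher (log2 0.71 and 0.67) and Stard4, a sterol carrier, lower (log2 −0.56 and −0.52) in Thy1hi cells and HFSCs.

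Among keratinocytes, the follicle stem cells differed from the interfollicular cells at Fads1. In Thy1hi against HFSCs, 0 of the 30 genes were higher and 2 lower by limma, beside 6.51% and 6.86% of all genes. At an unadjusted p under 0.05 there were 4 higher and 2 lower, where 28.1% of all genes had such a p in either direction. edgeR called 0 higher and 2 lower, beside 1101 and 1397 of all 17204 genes. DESeq2 called 0 higher and 3 lower, beside 1587 and 1807. Fads1 was 3.8-fold lower in Thy1hi cells (log2 −1.93 ± 0.45 SE, adjusted p = 0.00603), a call kept in all 20 alternatives that gave a value. The exact permutation test gave p = 0.0286, the smallest for 4 against 4, which the lack of overlap fixes. Acly, the source of cytosolic acetyl-CoA, had 422, 503, 526 and 691 in Thy1hi cells and 1147, 787, 965 and 624 in HFSCs (log2 −0.70 ± 0.23 SE, adjusted p = 0.0442). The groups overlapped, and 10 of 21 alternatives ended that call (adjusted p from 0.0171 to 0.148), among them leaving out HFSC replicate 1, 2 or 3 or Thy1hi replicate 1, 2 or 3.

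In Thy1- against HFSCs, 0 of the 30 genes were higher and 1 lower by limma, beside 2.56% and 3.52% of all genes. At an unadjusted p under 0.05 there were 0 higher and 2 lower, where 23.7% of all genes had such a p in either direction. edgeR called 0 higher and 1 lower, beside 462 and 826 of all 17204 genes. DESeq2 called 0 higher and 1 lower, beside 1093 and 1309. The gene was again Fads1 (log2 −1.86 ± 0.45 SE, adjusted p = 0.0156, lost without HFSC replicate 2 at 0.0525 and without Thy1- replicate 1 at 0.0753). Both comparisons share the HFSC libraries. HFSC replicate 2 had the highest Fads1 of the HFSC libraries (72.8) and the highest count of the Langerhans cell marker Cd74 (1869). The part of Langerhans cell RNA was not tested. Srebf1, the SREBP gene tied to fatty acid synthesis, was higher in Thy1hi cells than in HFSCs without overlap (678, 663, 590.2 and 660 against 568, 528, 432 and 213) but did not pass the test. Rescaled to the same total, Srebf1 and Scap were called higher in Thy1hi cells than in HFSCs and Acly was no longer called.

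Between Thy1hi and Thy1- cells, the keratinocyte sort on which the study turns, the counts of these genes called were near or below the shares of all genes. In the fit of all libraries 0 of 30 passed in either direction, beside 0.116% higher and 0.221% lower of all genes. At an unadjusted p under 0.05 there were 0, where 7.22% of all genes had such a p in either direction. edgeR and DESeq2 called 0, beside 14 and 100 higher and 30 and 110 lower of all 17204 genes. Libraries of the same replicate number deviated together (r from 0.293 to 0.716 over the 4 pairs, and -0.652 to 0.514 over the 12 other combinations). With the replicate number as a block in a fit of these 8 libraries, 1 gene was higher and 0 lower, beside 3.42% and 3.19% of all genes. It was Insig1, with 224, 192, 217 and 236 in Thy1hi cells and 143.5, 109, 168 and 134 in Thy1- cells. Insig1 was higher by 1.58-fold (log2 0.66 ± 0.14 SE, adjusted p = 0.0180 with the block, 0.954 without it). The groups did not overlap, so 4 of 4 pairs were higher under any pairing.

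The Insig1 call did not survive the loss of a pair. With the block and without pair 1, 2, 3 or 4 the adjusted p was 0.0526, 0.0748, 0.0518 and 0.0940, the difference staying at 0.60 to 0.75 on the log2 scale. Without pair 2 the paired fit called Fasn instead. Of the 30 genes, 3 were higher in Thy1hi cells without overlap (Srebf2, Insig1 and Pmvk) and 0 lower, beside 3.59% and 3.17% of all genes. Rescaling the libraries to the same total left 0 of these 3 and shifted the median of all genes from −0.02 to −0.14 (log2), and quantile normalization left Insig1 alone. Leaving out Thy1hi replicate 2 raised the count to 5. All 4 SREBP control genes had a positive difference, from 0.12 to 0.66, the 7 mevalonate genes ran from −0.24 to 0.82, and the 8 fatty acid genes from −0.40 to 0.43.

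Pmvk, the kinase after Mvk, had 157, 175, 208 and 155 in Thy1hi cells and 139.9, 92.6, 154 and 96.7 in Thy1- cells (adjusted p = 0.0707 with the block). Srebf2, the SREBP gene tied to sterol synthesis, had 1144, 1026, 1297 and 1149.6 against 992, 993, 935 and 829 (adjusted p = 0.141 with the block). Outside the 30 genes, the blocked fit called 3 of the 21 other fatty acid genes lower in Thy1hi cells, beside 3.19% of all genes, Elovl4, which makes the very long chains of barrier ceramides (276 against 642, log2 −1.40, adjusted p = 0.00374), Me1, which makes NADPH (171 against 332, log2 −0.99, adjusted p = 0.00341), and Acsl4 (358 against 580.0, log2 −0.69, adjusted p = 0.020). Of the 7 efflux genes it called Abca1, a sterol exporter, lower (548 against 784, log2 −0.49, adjusted p = 0.0312). The summed count of 8 suprabasal markers was 10843 to 34845 in Thy1hi and 32135 to 49382 in Thy1- libraries. That of 5 basal markers was 178100 to 248853 in Thy1hi and 83547 to 149106 in Thy1- libraries, without overlap. The fibroblast markers summed to 163 to 1912 and 102 to 176. The part of these markers in the differences was not tested.

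The Thy1hiYFP+ cells had higher values than Thy1hi cells at most of the 30 genes. The difference was positive at 26 of 30, with a median of 0.59 (log2) beside −0.04 over all genes. All 7 mevalonate genes (0.38 to 1.25) and 10 of the 11 genes from squalene to sterol (up to 1.18) were positive. In 13 genes every YFP+ library exceeded every Thy1hi library and in 0 the reverse held, beside 4.92% and 5.55% of all genes. They were Hmgcs1, Mvd, Idi1, Fdps, Sqle, Msmo1, Nsdhl, Hsd17b7, Ebp, Sc5d, Acly, Acaca and Scd2.

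None of the 30 passed the adjusted test. limma called 0 higher and 0 lower, beside 0.0116% and 0% of all genes. edgeR and DESeq2 called 0, beside 2 and 59 higher and 0 and 43 lower of all 17204 genes. At an unadjusted p under 0.05 there were 13 higher and 0 lower by limma and 14 higher by each of the other tools, where 9.07% of all genes had such a p in either direction. The lowest adjusted p among the 30 was 0.251, for Acly (log2 0.88 ± 0.25 SE), and over all alternatives none fell below 0.0512.

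Sqle, the squalene epoxidase that controls entry into the sterol ring, had 894, 918 and 721 in YFP+ cells and 348, 319, 490.2 and 346 in Thy1hi cells (log2 1.18 ± 0.35 SE, adjusted p = 0.283). Idi1, which makes the active isoprene unit, had 984, 1043 and 869 against 484, 457, 598 and 363 (log2 1.04 ± 0.37 SE, adjusted p = 0.389). Hmgcs1 had 2889.7, 2730.2 and 2812 against 1782, 1527, 2347 and 1956 (log2 0.58 ± 0.27 SE, adjusted p = 0.536). The groups lay apart at each of them. Mvd, a decarboxylase, and Fdps, the farnesyl diphosphate synthase, had differences of 1.25 ± 0.47 and 1.11 ± 0.33 (log2, SE) at means of 84.2 and 91.4 in YFP+ cells.

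At 6 of the 30 genes, Hmgcs1, Idi1, Sqle, Nsdhl, Ebp and Acaca, the 3 YFP+ libraries exceeded all 17 other libraries, HFSCs and DETCs included, which held for 1.23% of all genes. Ebp, a sterol isomerase, had 139.55, 142 and 167 in YFP+ cells and at most 106 elsewhere. Nsdhl, a demethylating enzyme, had 121, 79.0 and 95.1 against at most 72.7. Of the 4 SREBP control genes, Insig1 (log2 0.56 ± 0.52 SE) and Scap (0.27 ± 0.22) had positive differences with overlapping libraries, Srebf1 (−0.14 ± 0.26) and Srebf2 (0.07 ± 0.23) were near 0, and Fads1 and Fads2 were below it (−0.25 ± 0.48 and −0.72 ± 0.76). No member of the 6 other sterol genes, 21 other fatty acid genes or 7 efflux genes passed the test by limma in this comparison.

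The count of 13 depended on the scaling and on single libraries. It was 8 when libraries were rescaled to the same total, 15 when Rn45s was left out of that total, and 11 after quantile normalization, always with 0 in the reverse direction. Leaving out Thy1hiYFP+ replicate 3, the lowest of the 3 at 21 of the 30 genes, raised it to 19, and leaving out any other library gave 13 to 17. The summed T cell markers were 68.8 to 111 in YFP+ and 137 to 246 in Thy1hi libraries, the fibroblast markers 34.7 to 187 and 163 to 1912, and the sebocyte markers 681 to 3689 and 475 to 2175. Without the marker Krt79, the sebocyte markers summed to 188 to 1644 in YFP+ and 83.9 to 360 in Thy1hi libraries. The suprabasal markers summed to 20394 to 69002 in YFP+ and 10843 to 34845 in Thy1hi libraries, and the follicle stem cell markers to 181 to 384 and 91.6 to 191. Their part was not tested.

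**Figure D3:**
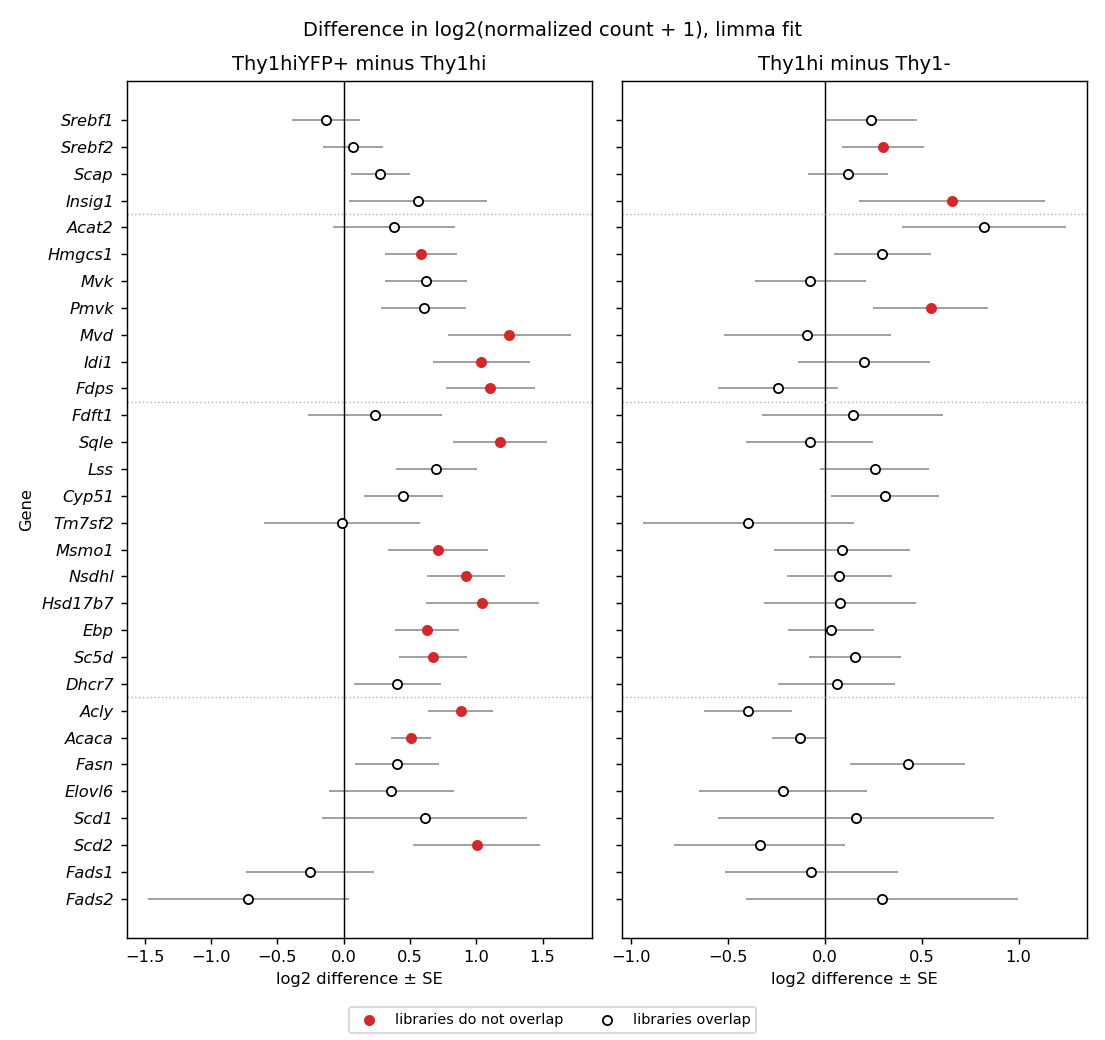
Difference in log2(normalized count + 1) with its standard error for the 30 genes, for Thy1hiYFP+ minus Thy1hi cells (left) and Thy1hi minus Thy1- cells (right), with branches split by dotted lines. Red points, 13 on the left and 3 on the right, are genes whose libraries do not overlap, and 26 of the 30 points on the left lie to the right of 0.

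Scd1, the main delta-9 desaturase of skin and the paralog of Scd2 (chr19:44394451-44407709, beside Scd2 at chr19:44293676-44306864), ranged widely within populations, which overlapped. It had 4394, 779.8, 1981 and 472 in HFSCs, 2605, 433, 1025, 121 and 448 in DETCs, 2891, 889 and 912 in YFP+ cells, 868, 655, 743 and 1357 in Thy1hi cells, and 592, 673, 695 and 1329.6 in Thy1- cells. No comparison passed the test. How reads shared between the Scd paralogs were counted is not given in the sources used here.

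Scd1 was set beside markers of sebocytes, the lipid-filled cells of the sebaceous gland. The library with the highest Scd1 also had the highest sum of 9 sebocyte markers in all 5 populations. Below the highest library, the order by Scd1 and by this sum was the same in HFSCs and DETCs and differed in the other populations. Thy1hi replicate 1 had the lowest sum of its population (83.9), while its Scd1 (868) exceeded that of replicates 2 and 3 (655 and 743). The 9 markers were Awat1, Awat2, Cidea, Elovl3, Far2, Mgst1, Plin2, Pparg and Scd3. Scd3, a paralog of Scd1, had 233 in HFSC replicate 1 and 368 in YFP+ replicate 1. If reads were shared between Scd paralogs, the sum is not independent of Scd1. In the same library order as above, that sum was 1769.5, 268, 939 and 195.5 in HFSCs, 1416, 176, 466, 83.7 and 199 in DETCs, 1644, 327 and 188 in YFP+ cells, 83.9, 130.4, 116 and 359.9 in Thy1hi cells, and 165, 219, 203 and 479.5 in Thy1- cells. Far2, a fatty acyl-CoA reductase of wax synthesis, had 668, 57.6, 334 and 32.2 in HFSCs. Krt79, the tenth marker of the list, was left out of the sum after its values were seen, since it made up most of it. By itself Krt79 was highest in the library with the highest Scd1 in DETCs, Thy1hi and Thy1- cells. In HFSCs it was highest in replicate 2 (4322, against 3803 in replicate 1), and so in YFP+ cells (3049 against 2045), where Scd1 was highest in replicate 1. With Krt79, the sum ran from 475 to 5573 over all libraries, with reads for 7 to 10 of the 10 markers in every library of a population. Elovl6 was highest in the library with the most sebocyte markers in 2 of 5 populations. The part of sebocyte RNA in Scd1 was not tested.

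**Figure D4:**
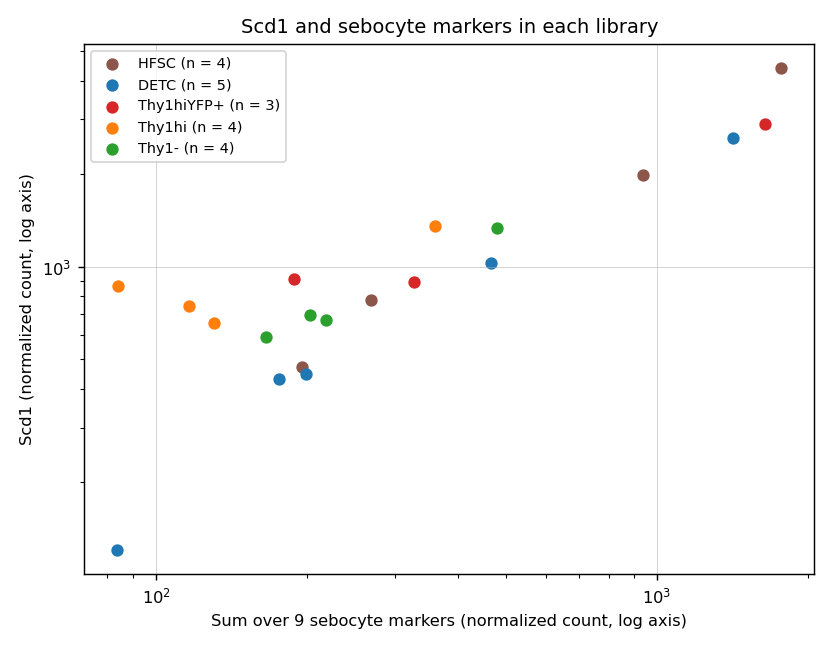
Normalized count of Scd1 (y, log axis) against the summed normalized count of 9 sebocyte markers, Scd3 among them (x, log axis), in each of the 20 libraries, coloured by population. HFSC replicate 1, Thy1hiYFP+ replicate 1 and DETC 1 lie at the upper right with Scd1 at 4394, 2891 and 2605, and DETC a lies lowest at 121.

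The sterol genes also varied together between libraries of the same population. HFSC replicate 4 had the lowest value of the 4 HFSC libraries at 27 of the 30 genes, while it was lowest at 35.4% of all genes tested, and its mean deviation over the 30 genes was −0.82 (log2). HFSC replicate 1 was highest at 22 of 30, beside 18.8% of all genes. In this library the summed basal keratinocyte markers were 154326, against 68165 in HFSC replicate 4, where Rn45s took 13.1% of reads rather than 38.3% to 41.5% and the Langerhans cell markers summed to 60.3. Their part was not tested. Fdft1 shows the spread, with 941, 829, 594 and 143 in the 4 HFSC libraries.

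Over the deviations of all 20 libraries from their population means, a gene's correlation with the mean of the other members had a median of 0.63 over the 30 genes, beside 0.01 over the other genes tested. It was highest for Hmgcs1 (0.88), Msmo1, a C4 sterol oxidase (0.86), Srebf2 (0.84), Cyp51, a sterol demethylase (0.83) and Insig1 (0.82). It reached 0.7 in 13 of 30 genes and in 2.24% of the others. It was lowest for Scd2 (−0.30), Acaca (−0.18), Tm7sf2 (−0.03) and Fads1 (0.08). This description uses libraries that share depth and scaling, and much of it came from HFSC replicate 4. Without that library the median was 0.41 beside 0.01, and 1 gene, Lss, which closes the sterol ring, reached 0.7 (0.82), beside 0.547% of the others. Tm7sf2 then had 0.64 and Acaca 0.33, while Scd2 had −0.40, Ebp −0.37 and Fads1 −0.27.

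**Figure D5:**
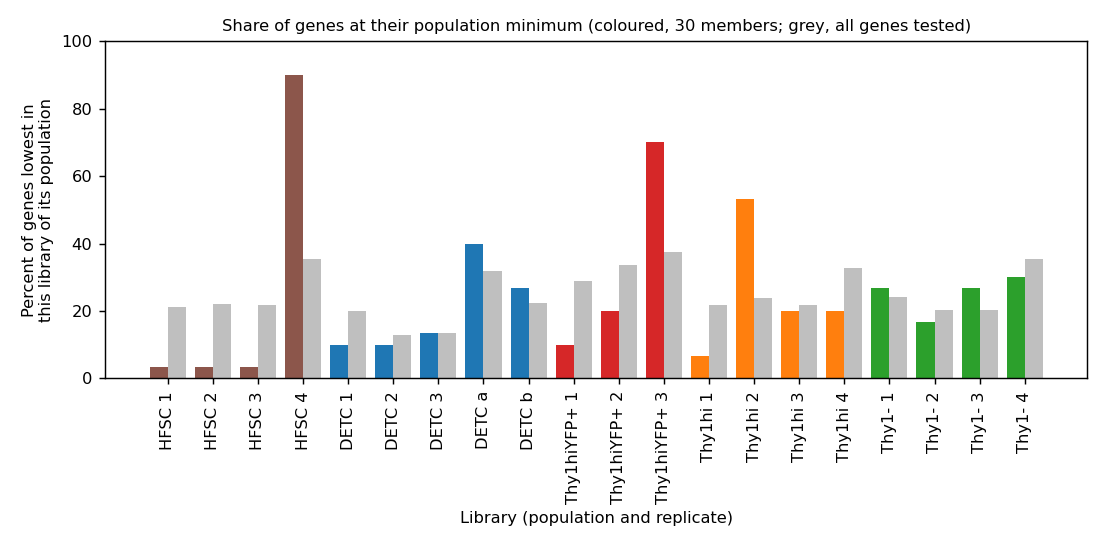
Percent of genes whose lowest value within a population falls in the library named on the x axis, for the 30 members (coloured) and for all 17204 genes tested (grey). HFSC replicate 4 holds the minimum of 27 members and Thy1hiYFP+ replicate 3 of 21, against 35.4% and 37.6% of all genes.

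Over the 6 comparisons, 19 of the 30 genes passed the test in none by the fit of all libraries. Besides those described, these include Acat2, the thiolase that starts the pathway, at means of 14.4 to 31.2, Lss at 177 to 356, Cyp51 at 470.0 to 812, Hsd17b7, a sterol ketoreductase, at 95.2 to 259, and Fasn at 1032 to 1898. Tm7sf2 had means of 14.0 to 27.8, and its difference between Thy1hi and Thy1- cells had a standard error of 0.54 (log2).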

How the data were processed

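The authors aligned single reads to mm10 with STAR, counted them per Ensembl gene with featureCounts and divided the counts by DESeq2 size factors, so the deposited values are normalized counts, a linear signal rounded to 2 decimals (tools also named in the submitters' processing notes, without versions). How multi-mapped reads were counted is not given in the sources used here. Reads on genes came to 7781256 to 12982393 per library. By these size factors, 99.995% to 100% of each library's values came from whole reads, that is, lay within 0.0051 of a whole multiple of what 1 read is worth. The values of 3212 genes in replicate 4 of Thy1- cells, which followed the order of names without hyphens, were put back (r with the other Thy1- libraries from 0.051 to 0.934). For 2 DETC libraries the column name matches no sample number, and they are named a and b.

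Genes with at least 10 in at least 3 libraries were fitted with limma 3.58.1 (eBayes with trend, R 4.3.3) on log2(value + 1), with a mean for each population and the 20 libraries fitted together. Fold changes are on that scale and understate those of low genes. The threshold was an adjusted p of 0.05 over 17204 genes, two-sided. Exact permutation tests of mean log2 values were added for single genes. edgeR 4.0.16 and DESeq2 1.42.0 were run on the recovered reads. The fits were tested on simulated data. Thy1hi and Thy1- libraries of the same number correlated in their deviations (r 0.293 to 0.716, and -0.652 to 0.514 for the 12 other combinations), so the replicate number was taken to pair them.

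The members, gene lists and markers were chosen with earlier results of these data known. Log2 fold changes with errors are given for members that passed the test, with levels in every library for the member of smallest p per branch and for Scd1 and Scd2. Values of further genes, the promoters shown and the genes without overlap were chosen after their values were seen. Exon lengths are unions from GENCODE M21, in which 23 of the 30 identifiers have the same version and 25 genes the same position as in the table. RefSeq promoter windows were matched by symbol.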

Additional observations from a re-analysis of the deposited data

Results flagged for a closer look

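In each population of 4 or 5 libraries, each of the 30 genes was checked for a library far from the others (gap to the nearest value over the range, Dixon's 95% limit). This made 120 groups of libraries, of which 10 held such a library, and chance alone flags about 1 in 20.

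In HFSC replicate 4, Srebf2 was low at 431.6 (others 994 to 1099). In HFSC replicate 2, Fads1 was high at 72.8 (20.3 to 28.9). In DETC b, Srebf1 was high at 669 (424 to 486). In DETC 1, Hsd17b7 was high at 185 (46.6 to 83.4). In Thy1hi replicate 4, Mvk was high at 163 (77.7 to 88.3). In Thy1hi replicate 3, Sqle was high at 490.2 (319 to 348) and Ebp low at 79.7 (101 to 104). In Thy1- cells, Elovl6 was high at 474 in replicate 3 (355 to 363), Scd1 at 1329.6 in replicate 4 (592 to 695) and Fads2 at 4.63 in replicate 2 (0.79 to 1.22).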

How the results depend on the processing

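The limits lie in 3 to 5 libraries per population, in HFSC replicate 4 and in the scaling. Of 33 log2 differences followed over the alternatives, 33 kept their sign in every value computed. Of 696 values, 652 stayed on the same side of the threshold, 43 lost the call and 1 gained it, Insig1 in the paired fit. Rescaling to totals without Rn45s, leaving out pairs in the paired fit, and the counts without overlap under other settings were chosen after the data were seen.

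The number of the 30 genes called in Thy1hi against Thy1- cells was 0 and became 1 with the replicate block in a fit of both populations, and 0 to 1 when a pair was then left out. Without the block it was 0 with each library left out. The block over all populations left 4 of 8 in Thy1hi cells against DETCs (1 higher and 3 lower). In Thy1hi cells against HFSCs, 2 became 1 with no filter, with a mean of at least 50, with only the 2 populations fitted and in the deposited row order, 3 when rescaled to the same total (Scap and Srebf1 higher, Fads1 lower), 3 without Rn45s in that total and with the block over all populations (Srebf1 higher, Acly and Fads1 lower), 3 by DESeq2 (all lower), and 1 to 2 without a library. In Thy1- cells against HFSCs, 1 became 0 with a mean of at least 50 and with only the 2 populations fitted, 3 when rescaled to the same total (Scap and Srebf1 then being higher), and 0 to 2 without a library. Without a library the counts were 6 to 9 against DETCs in Thy1hi cells, 5 to 9 in HFSCs, and 0 for YFP+ against Thy1hi cells. The cause was not tested.

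Of genes higher without overlap, the 3 in Thy1hi over Thy1- cells became 0 when rescaled to the same total, 1 without Rn45s in the total, 1 by quantile normalization, and 3 to 5 without a library. The 13 in YFP+ over Thy1hi cells became 8 when rescaled to the same total, and 13 to 19 without a library. DESeq2 gave no adjusted p for Fads2 in Thy1hi against Thy1- or YFP+ against Thy1hi cells.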
